A study of Drosophila melanogaster with 2 samples.

Results

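The genes described are 5 nuclear genes of Drosophila melanogaster whose products work in mitochondria: PNPase, CIA30, TFAM, PolrMT and bsf. They were taken by symbol from the Ensembl annotation of assembly BDGP6 and are 5 of 13968 protein-coding genes on the chromosome arms. The set was chosen by the ChIP signal of some of its members, since PNPase and CIA30 stand at peaks among the 25 strongest of the series, and TFAM, PolrMT and bsf were added as genes of the same pathways. The height of the peaks at PNPase and CIA30 is therefore given as a description, with no test.

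The series measured where a CG5953-eGFP fusion protein, which carries enhanced green fluorescent protein, sat on DNA in transgenic embryos of the strain CG5953-GFP, collected at 0 to 24 h of age. Whole embryos were used, so all embryonic stages and cell types of that window were mixed. Chromatin sonicated to 200 to 800 bp was pulled down with an antibody against green fluorescent protein (ChIP-seq) in 2 biological replicates of this 1 group, and libraries of another group, controls included, were not analysed here. CG5953 itself, the tagged gene, had 2 peaks of the conservative set near its starts.

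Animal mitochondria keep a small genome of their own, but nearly every protein that copies it, transcribes it and handles its transcripts is encoded in the nucleus. PolrMT is the mitochondrial RNA polymerase, and TFAM packages mitochondrial DNA and helps the polymerase start at its promoters. The transcripts are then bound and stabilised by proteins such as bsf (bicoid stability factor, a relative of mammalian LRPPRC that was named for binding bicoid mRNA) and degraded by enzymes such as PNPase (polynucleotide phosphorylase). Several of the proteins encoded there are subunits of complex I, the NADH dehydrogenase of the respiratory chain, and CIA30 (complex I intermediate-associated protein) is a chaperone for its assembly.

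The DNA under the peaks at PNPase and CIA30 is shown first, with the bases between the start of each other gene and the start of its divergent neighbour for comparison. These others held no thresholded peak, though weak ranked peaks lay in or near them. All were read from the Release 6 genome (dm6 coordinates) and are written 5′ to 3′ on the strand of the named gene. Capitals mark the longest word that the DNA within 50 bp of the PNPase summit shares with that within 50 bp of the CIA30 summit. The PNPase stretch is the gap between annotated exons that holds the summit, 48 bases, preceded on this strand by 8 bases of an exon (chr3R:31404605-31404660, minus strand). The CIA30 stretch is the whole 219 bases between its start and that of CG7601 (chr3R:29736746-29736964, plus strand). The other stretches are the 42 bases between TFAM and CG5412 (chr3R:20577011-20577052, minus strand), the 166 bases between PolrMT and CG14339 (chr2L:1108374-1108539, minus strand) and the 61 bases between bsf and its divergent neighbour (chr2L:18454588-18454648, minus strand).
PNPase: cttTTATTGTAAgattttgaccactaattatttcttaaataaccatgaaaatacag
CIA30: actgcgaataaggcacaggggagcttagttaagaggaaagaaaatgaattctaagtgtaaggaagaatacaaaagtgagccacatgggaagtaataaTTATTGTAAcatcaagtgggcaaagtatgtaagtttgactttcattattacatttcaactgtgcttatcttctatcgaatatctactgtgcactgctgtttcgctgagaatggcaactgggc
TFAM: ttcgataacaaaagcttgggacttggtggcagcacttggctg
PolrMT: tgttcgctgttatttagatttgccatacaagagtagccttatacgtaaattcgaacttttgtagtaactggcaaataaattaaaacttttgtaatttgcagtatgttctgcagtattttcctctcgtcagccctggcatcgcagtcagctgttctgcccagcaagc
bsf: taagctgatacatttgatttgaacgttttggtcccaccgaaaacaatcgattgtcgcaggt

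The tagged protein had strong, repeated peaks at the starts of PNPase and CIA30 and none that passed the authors' threshold at TFAM, PolrMT or bsf. A peak was assigned to a gene when its summit, the position of the highest signal inside it, lay within 500 bp of any annotated transcription start site (TSS). The authors kept peaks by a threshold on the irreproducible discovery rate (IDR), low where a peak keeps its rank from list to list. The conservative set, the stricter of the thresholded lists made from both libraries, held 3016 peaks, and the other such list, called the optimal set here, held 3305. In the conservative set 2 of the 5 genes had a peak, while 11.3% of protein-coding genes did. The same 2 genes had a peak in the optimal set (12.1% of protein-coding genes), in the 1975 thresholded peaks of replicate 1 alone (8.09%) and in the 1663 of replicate 2 alone (7.35%). The other 3 genes had none in any of the 4 thresholded lists, and still none when the window was widened to 1000 bp. Since peak height entered the choice of genes, nothing is read from the difference between 2 of 5 and these shares.

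PNPase (FBgn0039846) lies on the minus strand at chr3R:31401560-31405452 and has 3 annotated TSS, at 31404568, 31404740 and 31405452. Its peak covered chr3R:31404551-31404760, with the summit at 31404648. That position is 80 bp upstream of the TSS at 31404568, 92 bp downstream of the TSS at 31404740 and 804 bp downstream of the outermost TSS, so it is intronic in the longer transcripts and promoter DNA for the shortest. The signal, the authors' own value per peak in a unit the files do not state, was 814.7 with both libraries together. In the libraries' own lists it was 464.4 in replicate 1 and 347.4 in replicate 2 (406 ± 82.7, SD, n = 2). The summit moved little between lists, to 75 bp upstream of the same TSS in replicate 1 and 82 bp upstream in replicate 2. By signal the peak was number 7 in the conservative set, number 6 in replicate 1's thresholded list and number 11 in replicate 2's, ranks that hold within each list only.

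No other gene had a TSS within 500 bp of the PNPase summit. The nearest was that of Gprk2, a G protein-coupled receptor kinase gene that starts on the plus strand inside PNPase, 597 bp away. At the Gprk2 start the ranked list of both libraries held a peak of signal 14.3, and neither replicate's own list held one within 500 bp. The outermost PNPase TSS was likewise without a strong peak: the ranked list held signals of 9.48 at 21 bp and 35.0 at 428 bp upstream of it, and neither was in a thresholded list. The strong signal was thus placed at the inner starts, between those at 31404568 and 31404740.

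CIA30 (FBgn0039689) lies on the plus strand at chr3R:29736965-29738070 with 1 TSS. Its peak covered chr3R:29736740-29736953 and had a signal of 790.5, number 9 in the conservative set. Replicate 1 gave 419.8 and replicate 2 gave 398.7 (409 ± 14.9, SD, n = 2). The libraries thus differed less at CIA30, with a ratio of 1.05 of replicate 1 over replicate 2, than at PNPase, with 1.34. Over the 2990 conservative peaks that overlapped a ranked peak in both libraries the median ratio was 1.09. Over the 25 strongest of them the median was higher, 1.25, and the ratio ran between 0.861 and 1.84. The PNPase ratio lay above the median of these strongest peaks and the CIA30 ratio below it, with PNPase the nearer to it. The files do not say how the libraries were scaled against each other, so these ratios describe the lists as deposited.

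The CIA30 peak was shared. CG7601 (FBgn0027583, synonym DHRS7B in the RefSeq gene table) starts on the opposite strand, with the 219 bases printed above between the starts, and the summit lay within 500 bp of both. With both libraries together the summit was 105 bp upstream of CIA30 and 115 bp upstream of CG7601. In replicate 1 it was 124 bp from CIA30 and 96 bp from CG7601, and in replicate 2 it was 119 bp and 101 bp. Which of the genes is nearest therefore changes with the list, by distances below the fragment size of 200 to 800 bp, and the peak cannot be credited to CIA30 rather than to CG7601.

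**Figure D1:**
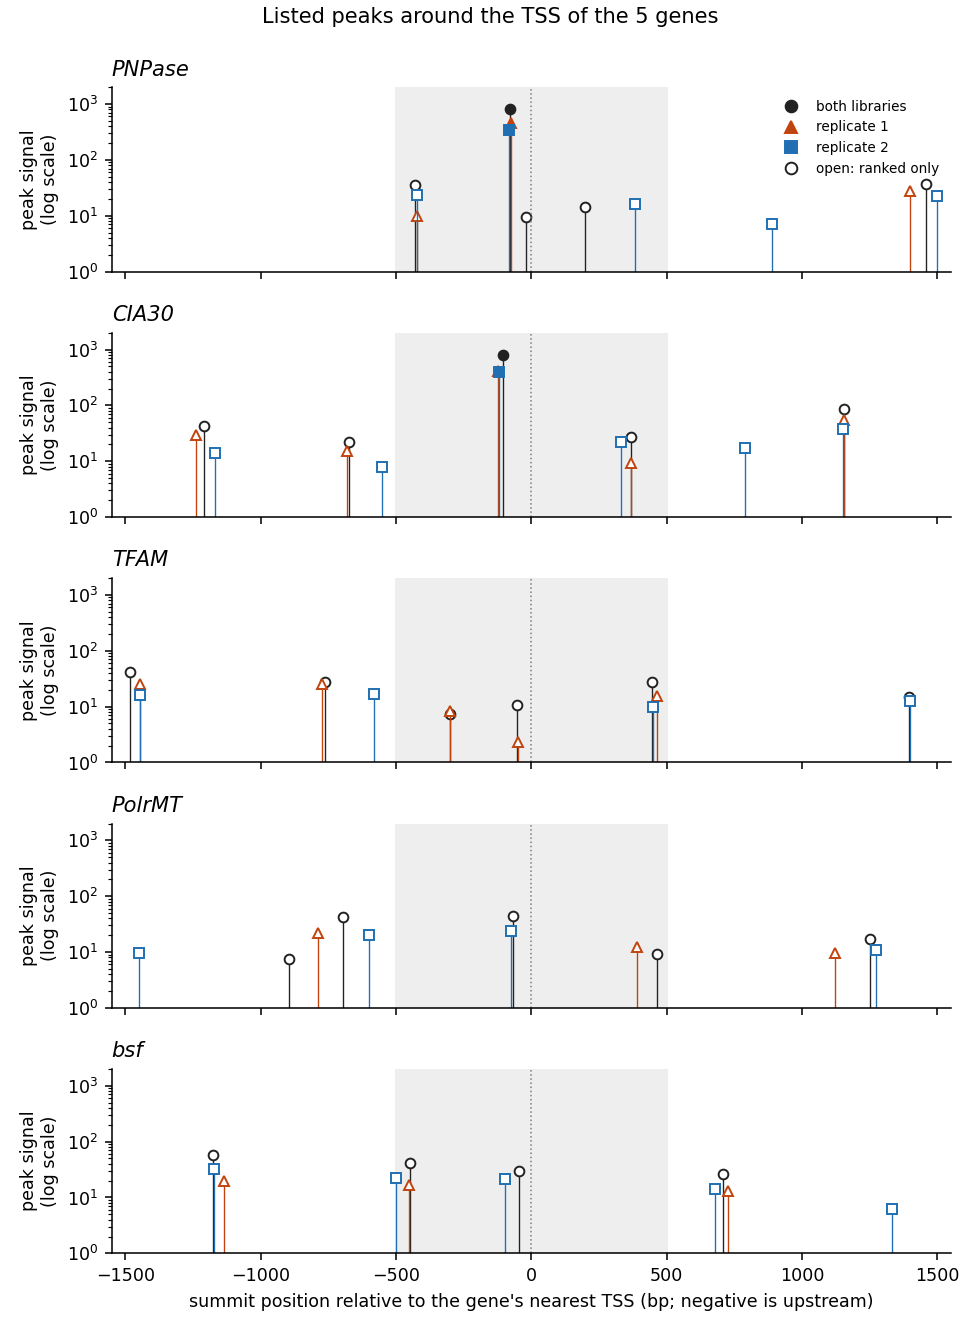
Signal of each listed peak (vertical axis, log scale, authors' value) against the position of its summit relative to the nearest TSS of the named gene (horizontal axis, bp), for the ranked lists of both libraries together (circles), replicate 1 (triangles) and replicate 2 (squares). Filled symbols are in the matching thresholded list, open ones only in the ranked list, and the grey band spans 500 bp to each side; within it, filled symbols appear only for PNPase and CIA30, from 347.4 to 814.7. Positions for PNPase are relative to whichever of its 3 TSS is nearest.

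A further peak stood at the other end of CIA30. Its summit was 1154 bp downstream of the CIA30 TSS and 156 bp upstream of the TSS of the next gene, Gnpnat (a glucosamine-phosphate N-acetyltransferase gene), at chr3R:29737971-29738266. Its signal was 85.7 with both libraries, 53.6 in replicate 1 and 37.6 in replicate 2. Its global IDR of 0.00120 was under the limit of 0.01 that the thresholded peaks met, yet it overlapped no peak of the 4 thresholded lists. It is 1 of 84 ranked peaks of this kind that the conservative set lacks, which no file explains, and it lay 57 bp from the nearest annotated transposable element.

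The genes of the transcription machinery and bsf had only weak ranked peaks. The ranked lists hold peaks down to very low signals: 82.8% of protein-coding genes had a ranked peak within 500 bp with both libraries, 76.2% in replicate 1 and 78.3% in replicate 2. A ranked peak alone therefore says little, and its signal is set here against the median of the strongest such peak over protein-coding genes, 27.1 with both libraries, 13.9 in replicate 1 and 15.3 in replicate 2.

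TFAM (FBgn0038805) lies on the minus strand at chr3R:20575245-20577010 and starts 42 bases from CG5412. Its strongest ranked peak within 500 bp had a signal of 27.7, with the summit 445 bp downstream of the TSS in coding sequence. Replicate 1 gave 15.2 there and replicate 2 gave 9.77. At the start itself, 52 bp upstream of the TSS, the signal was 10.6 with both libraries and 2.33 in replicate 1, and replicate 2 listed no peak there. With both libraries TFAM was thus at the level of the typical gene: 48.6% of protein-coding genes had a value at least as high. That share was 44.5% in replicate 1 and 68.8% in replicate 2, where TFAM was below the median.

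PolrMT (FBgn0261938) lies on the minus strand at chr2L:1103254-1108373 and starts 166 bases from CG14339. A ranked peak of signal 43.4 had its summit 69 bp upstream of PolrMT and 98 bp upstream of CG14339, inside the printed stretch. Replicate 2 held it at 24.2, 75 bp upstream, whereas replicate 1 had no overlapping peak and only 12.1 at 389 bp downstream. The level with both libraries was reached by 22.2% of protein-coding genes, that in replicate 1 by 56.6%. The −log10 of its global IDR was 1.02, where the thresholded limit is 2.

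The bsf gene (FBgn0284256) lies on the minus strand at chr2L:18449517-18454587 and starts 61 bases from Ntf-2r, a retroposed copy of Ntf-2. Its strongest ranked peak within 500 bp had a signal of 42.1 at 449 bp upstream, 16.4 in replicate 1 and 22.7 in replicate 2 (19.6 ± 4.46, SD, n = 2), a level reached by 23.7% of protein-coding genes with both libraries. That summit lies inside Ntf-2r. Whether reads of Ntf-2r and Ntf-2 can be told apart there was not tested. Nearer the bsf start, 46 bp upstream, the signal was 29.2 with both libraries. Replicate 2 gave 21.5 at 97 bp upstream, and replicate 1 listed no peak there. A higher signal, 57.8, stood 1175 bp upstream of bsf and 45 bp from the start of the lncRNA let7C, and it too missed the threshold, with a −log10 global IDR of 1.46. In both replicates, then, the signals of TFAM, PolrMT and bsf lay far below those of PNPase and CIA30, which were chosen by peak height.

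**Figure D2:**
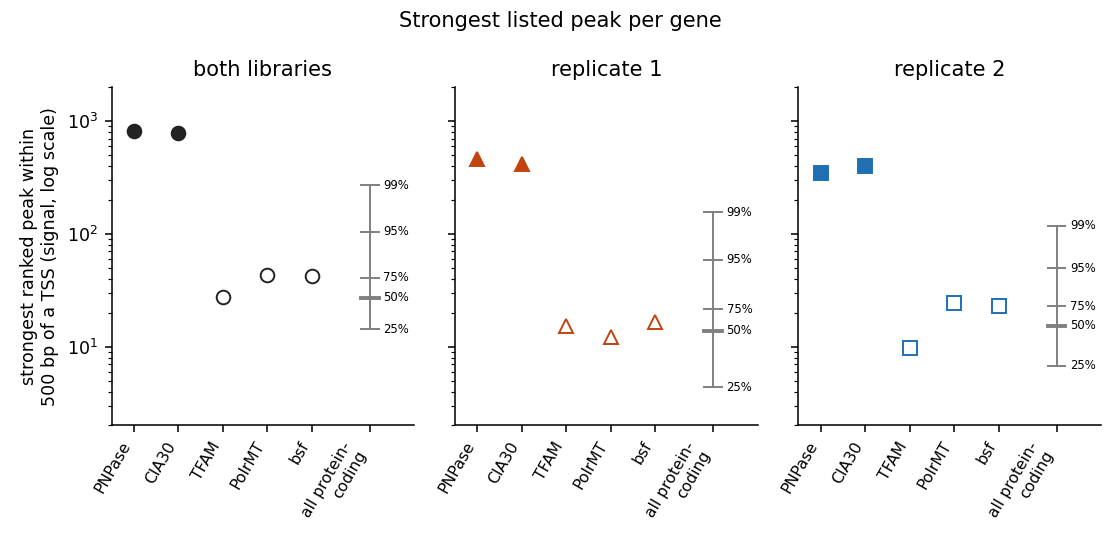
Strongest ranked peak within 500 bp of a TSS (authors' signal, log scale) for each of the 5 genes, in the lists of both libraries, replicate 1 and replicate 2, with percentiles over 13968 protein-coding genes in grey (genes with no ranked peak counted as 0). Filled symbols are thresholded peaks: PNPase and CIA30 lie above the 99% mark of 270.02, 155.8 and 118.3 in all 3 panels, and TFAM, PolrMT and bsf between 9.77 and 43.4.

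The genes differ less in their layout than in their signal. TFAM, PolrMT, bsf and CIA30 each start head to head with another protein-coding gene, whose TSS lies on the opposite strand at most 250 bp upstream, as do 14.2% of protein-coding genes. PNPase has no such neighbour upstream, but Gprk2 starts on the opposite strand 207 bp inside it, counted from its outermost TSS. Over all protein-coding genes 18.4% of those arranged head to head had a conservative peak, against 10.1% of the rest. A summit between such close starts was counted for both genes, and how far this rule raises the first share was not tested. The neighbours CG5412, CG14339 and Ntf-2r also lacked a thresholded peak within 500 bp, so in these gene pairs neither start carried one.

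In the order of signal in the conservative set, PNPase and CIA30 were among each other's nearest peaks. Between them, at number 8, was the peak nearest to CG8320, with a signal of 794.9 (460.4 in replicate 1 and 339.3 in replicate 2). The peaks just above PNPase had signals of 837.04 and 826.5, and their nearest TSS were 512 bp away, at ph-p, a Polycomb group gene, and 11907 bp away, at CG13323. The peaks just below CIA30 were at CenG1A, with 762.7, and Art3, an arginine methyltransferase gene, with 727.1. Replicate 1 values of these peaks ran from 397.8 to 467.9 and replicate 2 values from 331.8 to 376.9, so in replicate 2 CIA30, at 398.7, was above all of them.

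Sequence was the next feature the choice of genes did not use. Within 50 bp of the summit, G+C made up 32.7% of bases at PNPase and 31.7% at CIA30. The median was 36.6% over 3015 conservative summits on the arms, 29.7% over the 25 strongest of them and 40.6% over the 100 bases before 13945 protein-coding gene starts. At or below the PNPase value were 39.2% of conservative summits and 21.7% of gene starts, and for CIA30 these shares were 36.0% and 18.5%. Both summits were thus poorer in G+C than the typical gene start and close to the middle of the conservative set. In the 100 bases before the outermost start, G+C was 52.5% at PNPase and 38.6% at CIA30, and 40.6% at TFAM, 43.6% at PolrMT and 42.6% at bsf. In that window PNPase was thus the highest and CIA30 the lowest of the 5. The outermost PNPase start, however, lies 804 bp from the PNPase summit and had no strong peak.

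**Figure D3:**
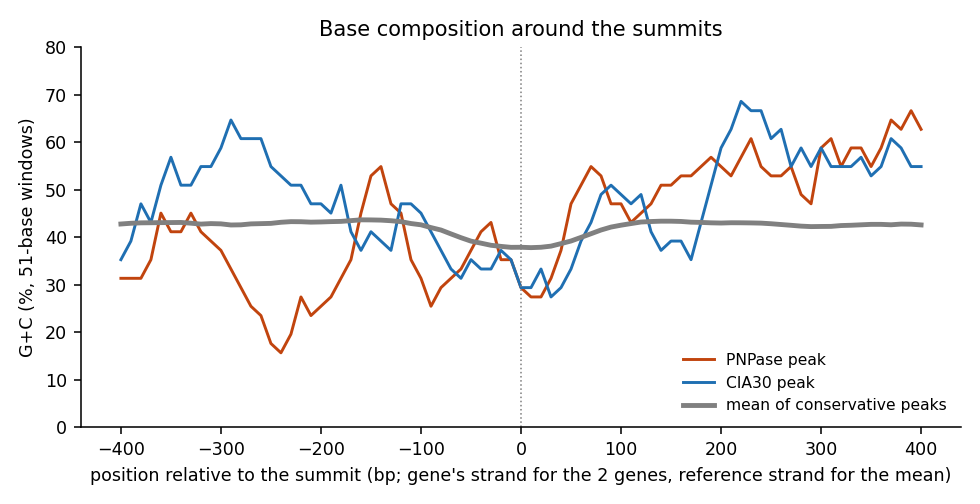
G+C in 51-base windows (vertical axis, %) by position relative to the summit (horizontal axis, bp) for the PNPase and CIA30 peaks and the mean of 3015 conservative peaks. At the summit both genes' windows hold 29.4% G+C and the mean is 37.9%; 200 bp downstream PNPase is at 54.9% and CIA30 at 58.8%, and 200 bp upstream PNPase is at 25.5%, below its summit, and CIA30 at 47.1%.

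The longest word in common between the DNA around the PNPase and CIA30 summits had 9 bases, TTATTGTAA, and it read in the same direction on the strand of each gene. At PNPase it covered chr3R:31404649-31404657, 1 base from the summit with both libraries. There the word crossed the boundary between the 8 printed exon bases and the gap between exons. At CIA30 it covered chr3R:29736843-29736851, 9 bases from that summit. The summits of replicate 2 fell inside the word at both genes, and those of replicate 1 lay 6 bases from it at PNPase and 2 bases from it at CIA30. On either strand, 0.332% of conservative summits (10 of 3015) and 0.136% of gene starts (19 of 13945) held it in a window of the same 101 bases. The 10 summits include those of PNPase and CIA30, which hold the word by the way it was picked. The 8 other peaks with the word had signals from 45.6 to 348.6 with a median of 100.4. The bases printed for TFAM, PolrMT and bsf lack it, but these stretches are 42 to 166 bases and the word is rare. Its absence there therefore says little. The word was picked out by comparing the PNPase and CIA30 summits, so it is a description of them. Of the 25 strongest conservative peaks, 23 lacked this exact word within 50 bp of the summit, and the others were PNPase and CIA30 themselves. Whether the word bears on peak strength was not tested.

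Known promoter motifs were searched at these summits, with the shares of all conservative summits and gene starts beside each. Of 11 motifs searched on both strands within 100 bp, PNPase held the ETS-type CCGGAA, present at 4.84% of conservative summits and 4.88% of gene starts in windows of equal length. CIA30 held CGATA, the core bound by the insulator protein BEAF-32, present at 25.1% of summits and 39.4% of starts. Neither motif lay within 50 bp of the summit. Both summits lacked the DRE TATCGATA, which contains CGATA and was present at 2.29% of summits and 8.22% of starts. They lacked the Motif 1 core GGTCACACT, at 1.16% of summits and 5.5% of starts. Also absent were Motif 5, CAGCTG, with shares of 9.95% and 14.1%, and the E-box, CACGTG, with shares of 2.39% and 3%. The Motif 7 core, CATCNCT, was at 8.69% of summits and 11.2% of starts but at neither of these summits. The PNPase and CIA30 summits also lacked the GAGA element, GAGAG, with 26.7% and 22.7%, and the NRF-1-type element, GCATGC, with 3.35% and 3.27%. They lacked the TATA box, searched as TATAAA, with 28.9% and 32.7%, and Motif 6 with 0.299% and 1.79%. In the windows at the gene starts, 150 bases before to 50 after, PNPase held the GAGA element and CIA30 held the BEAF-32 core and Motif 5. For CIA30 this window overlaps that of the summit, and the same BEAF-32 core site lies in both. TFAM held the BEAF-32 core and the TATA box, PolrMT held Motif 5, the E-box and the GAGA element, and bsf held the BEAF-32 core and the GAGA element. Motif 1, the DRE, Motif 6 and Motif 7 were in none of the 5.

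Other genes of the same pathways had peaks here and there, all of them lower than those of PNPase and CIA30. Since PNPase and CIA30 were chosen by peak height, nothing is read from that order. Of 17 further genes for mitochondrial transcription and RNA, 2 had a conservative peak (11.8%, beside 11.3% of protein-coding genes), and both encode counterparts of mammalian SLIRP, an RNA-binding partner of LRPPRC. SLIRP2 had a signal of 425.7 at 109 bp upstream of its TSS, 260.5 in replicate 1 and 169.01 in replicate 2, in a peak shared with the kinase gene Mkk4. SLIRP1 had 92.6 at 217 bp upstream, 61.3 in replicate 1 and 30.1 in replicate 2, in a peak shared with anox that was absent from replicate 2's thresholded list. The other 15 had none, among them the transcription factor genes mtTFB1 and mtTFB2, the termination factor gene mTTF, the poly(A) polymerase gene MTPAP, the helicase gene Suv3 and the tRNA-processing genes rswl, scu, mldr and RNaseZ. The highest ranked signal among them was 53.8, at mTerf5, and the median over the 17 was 31.8, beside 27.1 over protein-coding genes.

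For complex I assembly, 12 further entries were listed, 9 matched the annotation and 3 of the 9 had a conservative peak (33.3%, beside 11.3% of protein-coding genes). The median of the strongest ranked signal over the 9 was 35.9, beside 27.1 over protein-coding genes. Those with a conservative peak were CG17726 with a signal of 351.3 (213.3 in replicate 1 and 130.7 in replicate 2), CG8067 with 117.3 (63.03 and 50.6), whose peak also lay near Ctf4, and CG3270 with 55.4 (30.9 and 25.7), which was in neither replicate's own thresholded list. The reference gives these 3 no named role. No conservative peak was found at sicily, a chaperone gene for a complex I subunit, at AIF, at Nubpl, which serves iron-sulfur cluster delivery to complex I in mammals, or at CG5569 and CG11722, whose RefSeq synonyms are dNDUFAF3 and dNDUFAF4. Acadvl, which entered the list under another name and is annotated as an acyl-CoA dehydrogenase, had none either.

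Of 7 genes that maintain mitochondrial DNA, 3 had a conservative peak (42.9%, beside 11.3% of protein-coding genes), and the median of the strongest ranked signal over the 7 was 37.2. Lon, the gene of a mitochondrial protease, had a signal of 258.1 at 107 bp upstream (169.4 in replicate 1 and 86.6 in replicate 2), in a peak shared with PIG-F. The gene mtSSB, for the single-stranded DNA binding protein, had 181.4 at 323 bp upstream (89.9 and 85.6). EndoG, a nuclease gene, had 100.5 at 30 bp upstream (53.0 and 47.4). The polymerase genes PolG1 and PolG2, mtDNA-helicase and Top3alpha had none, so neither the mitochondrial DNA polymerase nor the RNA polymerase gene carried a thresholded peak. The counts of 2 to 3 genes are a description, and no test was made of these lists against each other or against all protein-coding genes.

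**Figure D4:**
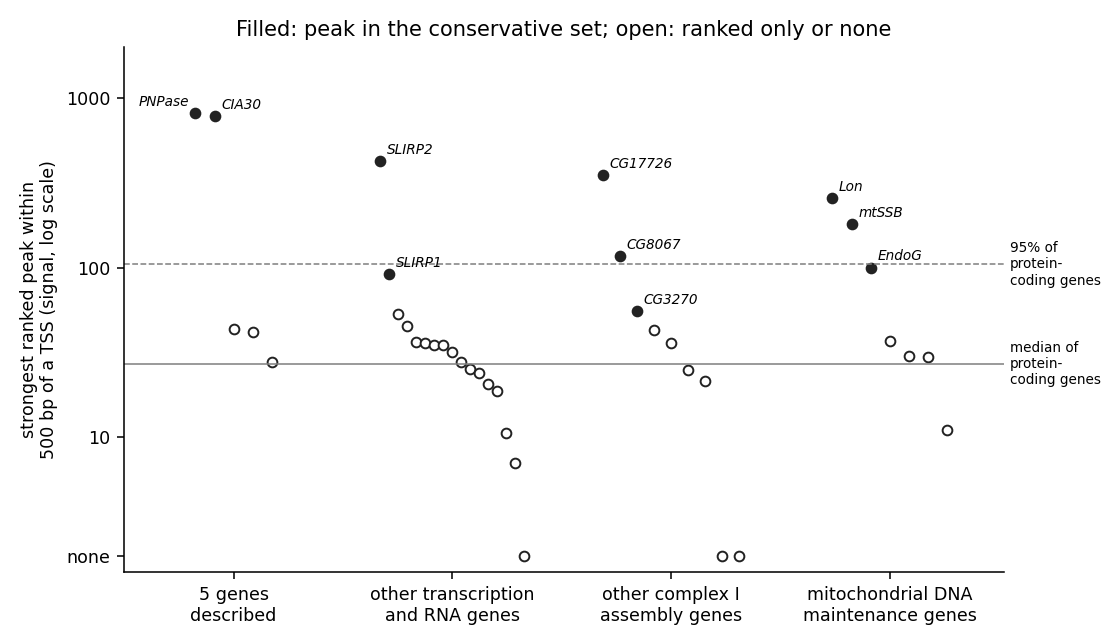
Strongest ranked peak of both libraries within 500 bp of a TSS (authors' signal, log scale; "none" marks genes without one) for the 5 genes and for 17, 9 and 7 genes of the other lists, 1 point per gene in falling order within a list. Filled and named points have a conservative peak. PNPase and CIA30, at 814.7 and 790.5, are above all others shown, of which the highest is SLIRP2 at 425.7. PNPase and CIA30 were chosen by peak height.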

How the data were processed

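ChIP-seq peak lists of 2 biological replicates of 1 group were read on dm6. Neither aligner nor peak caller is given in the sources used here. The deposited lists give a signal value, a score rescaled from the IDR (up to 1000), a summit offset in bp and, in ranked lists, the −log10 of the global IDR. Peak lists hold no reads, so depth is unknown. Replicate signals are those of the strongest peak in each library's own ranked list that overlaps by at least 1 bp; 16 columns of matching peaks in the pooled ranked lists were not used. Python 3.11.15, numpy 2.4.6 and matplotlib 3.10.9 were used with Ensembl release 115 and the Release 6 sequence, whose arm lengths hold every peak; transposable elements and pseudogenes were left out. The assignment of peaks to genes was tested on simulated data. The members, the 3 lists and the motifs were chosen with earlier results of these data known; the shared word and G+C were chosen after seeing the data. Named were the 5 genes, genes sharing or flanking their peaks, list genes with a peak (genes without one after their values were seen) and the peaks next in signal. No statistical test was made. The alternatives were the optimal set, each replicate's list, conservative peaks found in both, windows of 250 and 1000 bp, the nearest TSS only, overlap by 50% of the shorter peak, and motifs within 50 bp.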

Additional observations from a re-analysis of the deposited data

How the results depend on the processing

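PNPase and CIA30 were the 2 genes with a peak under every alternative tried. With the nearest TSS only, CIA30 kept its conservative peak at 105 bp, against 115 bp for CG7601. In each replicate's own list CG7601 was the nearer gene. The share of protein-coding genes with a peak was 7.35 to 8.09% in the lists of 1 replicate and 5.35% for the 1181 conservative peaks also in both of those lists. Of the other mitochondrial transcription and RNA genes, 1 to 2 had a peak in the lists of 1 replicate, 1 among conservative peaks in both replicates' lists and 1 when each peak went to its nearest TSS only. With a window of 1000 bp, 2 of the 5 genes shared their peak with another gene, in place of 1. Motif matches at the PNPase and CIA30 summits numbered 2, and 0 within 50 bp. The other 34 of 41 alternative counts and shares stayed within 1.5 times. The signals of the PNPase and CIA30 peaks were lower in the lists of 1 library, 347.4 to 464.4 at PNPase and 398.7 to 419.8 at CIA30, than with both; the cause was not tested. Asking for overlap by 50% of the shorter peak left the replicate signals at PNPase and CIA30 as they were. No paired analysis was possible because there was 1 group and no test. Depth is unknown, so a weak ranked signal at TFAM, PolrMT or bsf does not show that the protein was absent there.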

Other observations

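No peak of any of the 8 lists lay on the mitochondrial genome itself. The sources used here do not say whether reads from it were kept, so this count of 0 says nothing about the protein in mitochondria. Peak width was another value not used above: the PNPase and CIA30 peaks were 210 and 214 bp wide, whereas 92.3% of conservative peaks had the same width of 296 bp. The 5 other peaks next to them in signal were as narrow, from 202 to 220 bp.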
